A study of Homo sapiens with 12 samples.

Results

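The CDK inhibitor genes are the 7 genes that encode the CIP/KIP and INK4 proteins, and they were followed here in squamous carcinoma cells treated with squamocin. The members were taken by name: CDKN1A, CDKN1B and CDKN1C of the CIP/KIP family, and CDKN2A, CDKN2B, CDKN2C and CDKN2D of the INK4 family. All 7 were listed among the 29657 genes of the SCC15 table and the 31055 genes of the SCC25 table, and all 7 passed the filter on low values in both cell lines. SCC15 and SCC25 are established human oral squamous carcinoma cell lines, labelled WT. Each was treated for 24 h with squamocin at 10 µg/mL, which the labels call ACGs after the annonaceous acetogenins, or with the solvent DMSO. For each cell line, 3 libraries were sequenced per treatment (12 overall). Nothing in the labels says that the libraries of a group came from separate cultures, so the p-values measure only the spread between these libraries, which may be technical.

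Progression through the cell cycle is driven by cyclin-dependent kinases (CDKs), which phosphorylate RB and so release E2F transcription factors. The CIP/KIP proteins bind complexes of cyclins with CDKs and block above all the CDK2 complexes, whereas the INK4 proteins bind CDK4 and CDK6 and keep cyclin D from them. CDKN1A encodes p21, which is induced by DNA damage, CDKN1B encodes p27, whose level is set largely by protein degradation, and CDKN1C encodes p57 from an imprinted locus. CDKN2A encodes p16INK4a and, from another first exon, p14ARF, which binds MDM2. CDKN2B, CDKN2C and CDKN2D encode p15, p18 and p19. Loss of p16 is frequent in head and neck squamous cancer.

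Values are given as normalized counts, the reads of a gene after the authors' scaling of each library, which was done separately for the cell lines. Recovered reads on genes numbered from 16665563 to 22748845 per library, and a member held from 45 to 20904 reads. The scaling leaves higher totals with ACGs than with DMSO, 20467856 to 24626253 against 15466464 to 15535484 normalized counts in SCC15 and 20917114 to 21265099 against 18245022 to 18333723 in SCC25. Libraries scaled to equal totals move the median over all tested genes on the log2 scale to -0.50 in SCC15 and -0.23 in SCC25, from 0.012 and -0.015. Replicate 3 of SCC15 with ACGs stood apart, with a chi-square per degree of freedom of 64.1 and 56.8 against its 2 partners where other pairs within a group gave 1.67 to 9.95. Of the 8 epithelial markers, SCC25 expressed all, with KRT5 at a mean of 5627 and TP63 at 4512 normalized counts with DMSO. In SCC15, KRT17 stood at 112298 and CDH1 at 525, but KRT5 at 9.50, TP63 at 17.5 and EPCAM at 11.4, so these 3 were close to the limit of the filter there. The other markers of the list, KRT14 at 759, SFN at 2424 and KRT6A at 134, were expressed in SCC15 with DMSO. KRT5 and TP63 are defining markers of squamous epithelium, and their low levels go against the label of SCC15, whereas the levels of KRT14, KRT6A and KRT17 do not. The identity of SCC15 was not tested. Of 8 markers of other cells, those of leukocytes were low with DMSO, with PTPRC at 3.05 in SCC15, CD68 at 1.37 in SCC15 and 4.95 in SCC25, and CD3E at 17.7 in SCC15, as high as TP63, and 22.8 in SCC25. COL3A1 and PECAM1 stood at 445 and 166 in SCC15 and COL1A1 at 576 in SCC25. Their part in the results on the CDK inhibitor genes was not tested.

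The sequences before the start sites are shown for the members that were called higher in both cell lines, and for CDKN2C, the member with opposite calls. RefSeq on GRCh38.p14 gave 9 windows for 6 of the 7 members, each of 250 bases before an annotated start. No entry was found for CDKN1C. Capitals mark GC boxes (GGGCGG) and CCAAT boxes (CCAAT), each sought on both strands, with overlapping matches counted, and neither motif contains the other.
CDKN1A (chr6:36678464-36678713, plus strand): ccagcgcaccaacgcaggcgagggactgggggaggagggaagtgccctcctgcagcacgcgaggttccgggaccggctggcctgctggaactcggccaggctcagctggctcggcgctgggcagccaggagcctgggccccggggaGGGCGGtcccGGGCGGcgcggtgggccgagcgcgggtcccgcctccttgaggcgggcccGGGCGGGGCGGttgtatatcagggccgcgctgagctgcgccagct
CDKN1B (chr12:12717118-12717367, plus strand): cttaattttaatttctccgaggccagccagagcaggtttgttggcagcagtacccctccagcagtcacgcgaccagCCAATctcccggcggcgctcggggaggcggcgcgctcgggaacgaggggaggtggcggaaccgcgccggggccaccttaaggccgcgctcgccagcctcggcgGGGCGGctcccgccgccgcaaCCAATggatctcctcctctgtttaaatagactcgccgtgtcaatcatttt
CDKN2A, upstream start (chr9:21995325-21995574, minus strand): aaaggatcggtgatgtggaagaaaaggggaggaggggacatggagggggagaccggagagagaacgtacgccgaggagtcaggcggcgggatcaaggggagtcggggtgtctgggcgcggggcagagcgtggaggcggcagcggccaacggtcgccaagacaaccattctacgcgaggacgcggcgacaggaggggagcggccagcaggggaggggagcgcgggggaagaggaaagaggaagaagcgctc
CDKN2A, downstream start (chr9:21974858-21975107, minus strand): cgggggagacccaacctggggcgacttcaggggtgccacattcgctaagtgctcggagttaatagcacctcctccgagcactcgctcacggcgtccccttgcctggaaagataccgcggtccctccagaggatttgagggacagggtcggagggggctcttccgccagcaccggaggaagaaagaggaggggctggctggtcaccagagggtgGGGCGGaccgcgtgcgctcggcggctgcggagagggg
CDKN2B (chr9:22009306-22009555, minus strand): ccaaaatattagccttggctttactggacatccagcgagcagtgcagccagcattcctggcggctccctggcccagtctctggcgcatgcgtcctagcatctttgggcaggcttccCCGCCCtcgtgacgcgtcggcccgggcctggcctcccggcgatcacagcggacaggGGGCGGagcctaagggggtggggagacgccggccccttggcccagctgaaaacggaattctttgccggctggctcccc
CDKN2D (chr19:10568980-10569229, minus strand): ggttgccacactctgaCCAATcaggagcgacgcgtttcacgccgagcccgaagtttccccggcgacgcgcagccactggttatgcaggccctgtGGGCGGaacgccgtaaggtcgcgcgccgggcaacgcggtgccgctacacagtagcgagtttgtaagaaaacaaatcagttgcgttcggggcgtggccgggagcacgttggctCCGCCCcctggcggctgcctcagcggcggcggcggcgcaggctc
CDKN2C, start with the most GC boxes (chr1:50968456-50968705, plus strand): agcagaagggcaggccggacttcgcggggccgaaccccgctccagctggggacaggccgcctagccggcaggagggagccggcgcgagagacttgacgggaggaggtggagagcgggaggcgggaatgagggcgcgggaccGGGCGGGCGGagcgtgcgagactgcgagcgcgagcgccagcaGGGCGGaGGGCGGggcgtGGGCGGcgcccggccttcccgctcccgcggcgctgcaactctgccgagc
A GC box was present in 7 of the 9 windows and in 42.6% of all 35116 RefSeq windows of the same length, and a CCAAT box in 3 of the 9 and in 32.0% of all. The CDKN1A window held 4 GC boxes and 76.4% G and C, against a median of 58.0% over all windows. CDKN2A has one start for each of its products: the upstream start, that of p14ARF, had 0 GC boxes and the downstream start, that of p16INK4a, had 1. The letters TATAAA, the core of a TATA box, were in 0 of the 9 windows and in 10.7% of all. An E-box (CACGTG) was found in 2 windows, both of CDKN2C and neither printed above, and in 6.34% of all. The E2F motif TTTNGCGC was in 0 windows against 1.51%, and the element TGATGNAAN read by ATF4 and CHOP in 0 against 3.13%. A match is only a description of these letters.

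Squamocin was accompanied by higher levels of nearly the whole group. ACGs and DMSO libraries were compared within each cell line by a two-sided limma test of log2 values (normalized count plus 1), and a gene was called at an adjusted p under 0.05. In SCC15, 6 of the 7 members were called higher and 1, CDKN2C, lower. For comparison, 30.9% of the 15902 genes tested were called higher and 30.0% lower (61.0% in either direction). In SCC25, all 7 members were called higher, where 38.3% of the 16539 genes tested were higher and 38.5% lower (76.8% in either direction). The count of 6 members higher in both lines stands beside 22.1% of the 14454 genes tested in both. Over the 7 genes the median log2 fold change was 1.26 in SCC15 and 1.49 in SCC25. With libraries scaled to equal totals, the medians were 0.77 and 1.28, the counts of higher members were 5 and 6, and CDKN1B joined CDKN2C among the lower genes of SCC15. No member had overlapping treatments in either line, which was also so, with ACGs above DMSO, for 35.7% of the genes in the SCC15 test and 39.4% in that of SCC25, and with ACGs below DMSO for 34.9% and 39.6%. An exact permutation test of 3 libraries against 3 can give no p below 0.1. In bulk RNA, fewer cells that express a gene and less of its RNA per cell cannot be told apart.

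**Figure D1:**
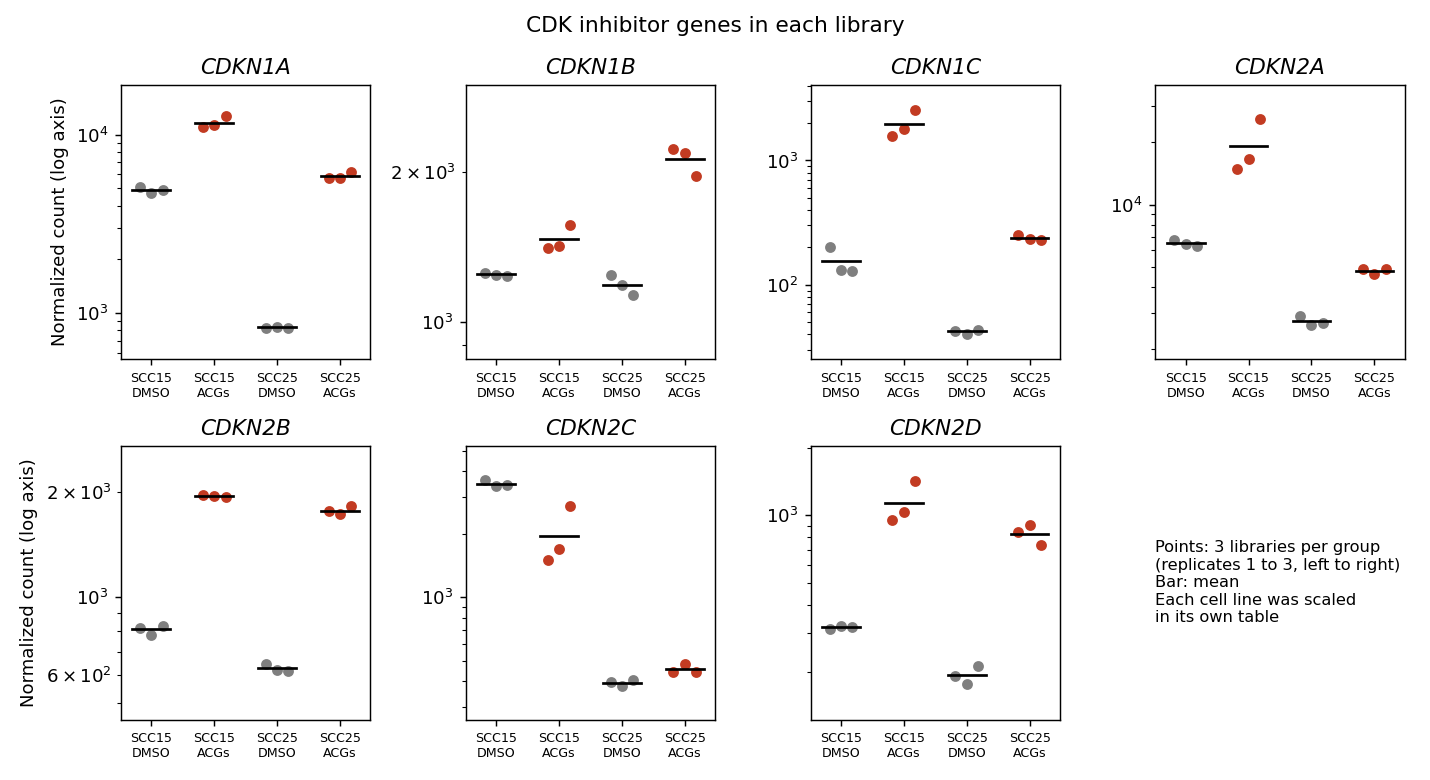
Normalized counts (log axis) of the 7 CDK inhibitor genes in each of the 12 libraries, grouped by cell line and treatment, with the mean of 3 libraries as a bar. On the deposited scaling, ACGs libraries lie above DMSO libraries in every panel and line except CDKN2C in SCC15, where they lie below.

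CDKN1A (ENSG00000124762; chromosome 6, 36676460 to 36687339, plus strand, GRCh38) rose in both lines and had the largest log2 fold change of the 7 genes in SCC25. In SCC15 its normalized counts in replicates 1 to 3 were 10985, 11349 and 12739 with ACGs and 5112, 4705 and 4866 with DMSO. In SCC25 they were 5716, 5682 and 6150 with ACGs and 824, 841 and 830 with DMSO. The DMSO libraries of SCC25 lay close together and all 3 ACGs libraries lay far above them, and the treatments did not overlap in SCC15 either. The mean rose from 4894 ± 205 to 11691 ± 926 (SD, n = 3) in SCC15, which is 2.39-fold, with a log2 fold change of 1.25 (SE 0.097, adjusted p = 6.30e-05, limma). In SCC25 it rose from 832 ± 8.41 to 5849 ± 261 (SD, n = 3), which is 7.03-fold, with a log2 fold change of 2.81 (SE 0.046, adjusted p = 1.13e-13, limma). Only 1.46% of the genes tested in SCC25 had a larger log2 fold change, and 8.44% in SCC15. Equal library totals gave 0.76 in SCC15, still called.

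CDKN1B (ENSG00000111276; chromosome 12, 12715058 to 12722371, plus strand) moved least among the CIP/KIP genes. Its normalized counts in SCC15 were 1408, 1420 and 1569 with ACGs and 1257, 1245 and 1236 with DMSO. For SCC25 the values were 2228, 2186 and 1962 with ACGs and 1246, 1186 and 1133 with DMSO. The gap between treatments was narrow in SCC15 and wide in SCC25, with no overlap in either. The fold of means was 1.18 in SCC15 (log2 fold change 0.23, SE 0.082, adjusted p = 0.0396, limma) and 1.79 in SCC25 (0.84, SE 0.059, adjusted p = 4.48e-08, limma). The call in SCC15 rests on the scaling. In CPM, the reads scaled only by the total of the library, CDKN1B was at 79.9 to 81.1 with DMSO and at 63.7 to 68.8 with ACGs in SCC15, and with equal totals its log2 fold change was -0.27 (adjusted p = 0.0176, limma). The SCC15 call was also lost without ACGs replicate 2 or without any 1 of the DMSO libraries, with log2 fold changes of 0.23 to 0.25 and adjusted p from 0.0655 to 0.135 (limma). In SCC25 the CPM was higher with ACGs, at 93.8 to 105 against 62.1 to 68.0 with DMSO.

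CDKN1C (ENSG00000129757; chromosome 11, 2883213 to 2885773, minus strand) showed the largest log2 fold change of the group in SCC15, from a low start. Its normalized counts there were 1571, 1788 and 2532 with ACGs and 200, 133 and 130 with DMSO. The counts in SCC25 were 252, 235 and 230 with ACGs and 42.7, 40.5 and 43.4 with DMSO. Replicate 3 with ACGs was the highest SCC15 library and replicate 1 the highest with DMSO, and even so the treatments were far apart. The mean was 12.7-fold higher in SCC15 (log2 fold change 3.66, SE 0.22, adjusted p = 2.72e-05, limma), and 0.465% of the genes tested there had a larger one. Without ACGs replicate 3 the value was 3.46. In SCC25 the mean was 5.66-fold higher (2.47, SE 0.13, adjusted p = 2.54e-09, limma).

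**Figure D2:**
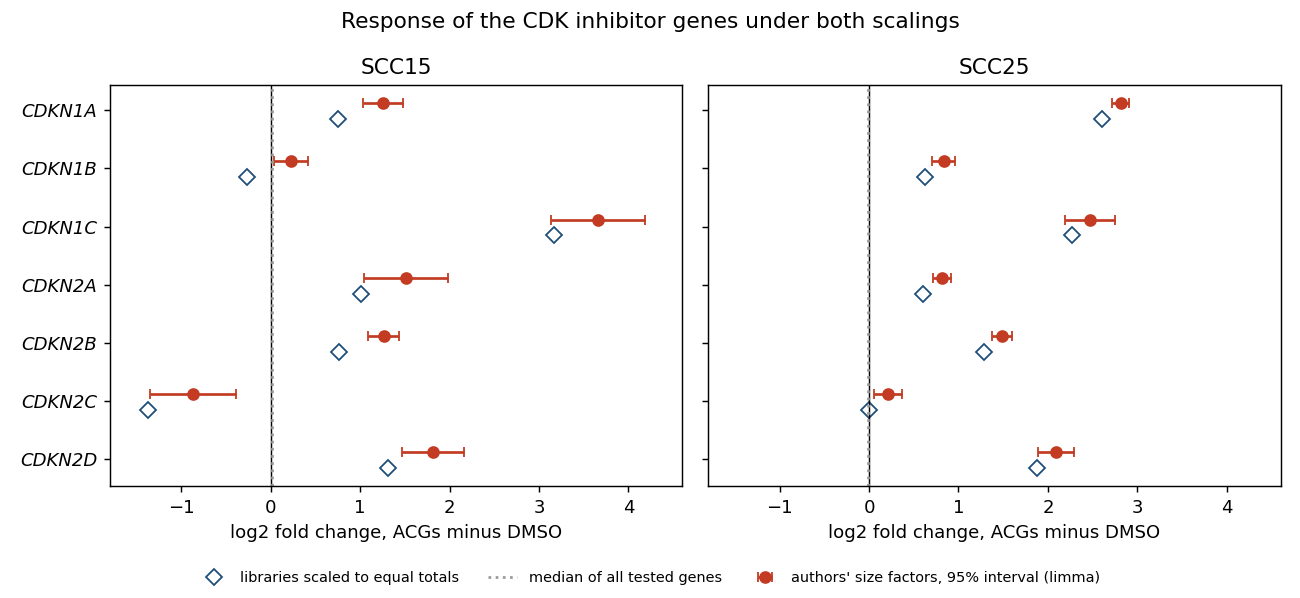
Log2 fold change (ACGs minus DMSO) of each CDK inhibitor gene in SCC15 and SCC25, as filled circles with 95% intervals from limma on the deposited scaling and as open diamonds with libraries scaled to equal totals, beside the median of all tested genes (dotted). CDKN1B in SCC15 changes sign between the scalings, from 0.23 to -0.27, and CDKN2C in SCC25 moves from 0.21 to 0.0035.

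Among the INK4 genes, CDKN2A (ENSG00000147889; chromosome 9, 21967753 to 21995301, minus strand) rose in both lines. In SCC15 its counts were 14805, 16704 and 26010 with ACGs and 6775, 6467 and 6320 with DMSO. SCC25 had 4858, 4628 and 4873 with ACGs and 2877, 2610 and 2682 with DMSO. The treatments did not overlap, and replicate 3 with ACGs in SCC15 lay well above its partners. The fold of means was 2.94 in SCC15 (log2 fold change 1.51, SE 0.20, adjusted p = 6.30e-04, limma) and 1.76 in SCC25 (0.81, SE 0.047, adjusted p = 6.00e-09, limma). Without ACGs replicate 3, the SCC15 log2 fold change was 1.27. One count per gene does not separate the p16INK4a and p14ARF transcripts.

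CDKN2B (ENSG00000147883; chromosome 9, 22002903 to 22009363, minus strand) lies 7601 bases from CDKN2A on the same strand and also rose in both lines. Its normalized counts in SCC15 were 1961, 1940 and 1936 with ACGs and 819, 783 and 830 with DMSO. The SCC25 libraries held 1757, 1726 and 1815 with ACGs and 647, 621 and 617 with DMSO. In normalized counts, replicate 3 of SCC15 with ACGs, the highest ACGs library of that line for each of the other 6 members, was here the lowest by a small margin. This order depends on the scaling. In CPM, replicates 1 to 3 were at 95.8, 93.2 and 78.6 for CDKN2B, and replicate 3 was also the lowest for CDKN1A (537, 545 and 517) and CDKN1B (68.8, 68.2 and 63.7). The rise was 2.40-fold in SCC15 (log2 fold change 1.26, SE 0.075, adjusted p = 2.51e-05, limma) and 2.81-fold in SCC25 (1.49, SE 0.052, adjusted p = 6.78e-11, limma). With equal totals the SCC15 value was 0.77.

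CDKN2C (ENSG00000123080; chromosome 1, 50960745 to 50974633, plus strand) was the member with opposite calls. In SCC15 its counts were 1502, 1692 and 2715 with ACGs and 3628, 3379 and 3444 with DMSO. In SCC25 they were 440, 484 and 442 with ACGs and 395, 380 and 403 with DMSO. Every ACGs library lay below every DMSO library in SCC15, with replicate 3 closest to them, and above every DMSO library in SCC25. The mean fell to 0.565 of its DMSO level in SCC15 (log2 fold change -0.87, SE 0.21, adjusted p = 0.00807, limma) and was slightly higher in SCC25 (log2 fold change 0.21, SE 0.072, adjusted p = 0.0181, limma). The SCC15 value was -1.13 without ACGs replicate 3 and -1.37 with equal totals. The SCC25 call did not hold with equal totals, at 0.0035 (adjusted p = 0.966, limma), nor without ACGs replicate 2 (0.17, adjusted p = 0.0629) or DMSO replicate 2 (0.19, adjusted p = 0.0721).

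CDKN2D (ENSG00000129355; chromosome 19, 10566462 to 10569059, minus strand) rose in both lines. Its counts were 954, 1032 and 1417 with ACGs and 311, 321 and 320 with DMSO in SCC15. The corresponding SCC25 values were 844, 905 and 742 with ACGs and 193, 177 and 212 with DMSO. The lowest ACGs library of each line stood well above the highest DMSO library. The folds of means were 3.57 in SCC15 (log2 fold change 1.81, SE 0.15, adjusted p = 8.37e-05, limma) and 4.27 in SCC25 (2.09, SE 0.094, adjusted p = 6.62e-10, limma). In SCC15 3.43% and in SCC25 3.20% of the tested genes had a larger log2 fold change.

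The response of 6 of the 7 genes differed between the cell lines, by a contrast of the 4 group means in limma. Of the 14454 genes tested in both lines, 52.2% differed in their response, 26.1% with the higher value in SCC15 and 26.0% with the higher value in SCC25. CDKN1C and CDKN2A had the larger log2 fold change in SCC15. For CDKN1C it was 1.19 greater there (SE 0.26, adjusted p = 0.00182, limma), and for CDKN2A 0.70 greater (SE 0.22, adjusted p = 0.0160, limma). Without ACGs replicate 3 of SCC15 the CDKN2A difference was 0.46 (adjusted p = 2.49e-05, limma), and with equal totals 0.41. CDKN1A, CDKN1B, CDKN2B and CDKN2C had the more positive value in SCC25. Their differences, SCC15 minus SCC25, were -1.56 for CDKN1A (SE 0.10, adjusted p = 1.34e-07, limma), -0.60 for CDKN1B (SE 0.10, adjusted p = 3.11e-04, limma) and -1.08 for CDKN2C (SE 0.23, adjusted p = 0.00146, limma). That of CDKN2B was small, -0.23 (SE 0.085, adjusted p = 0.0385, limma), and was -0.52 with equal totals. It was no longer called without ACGs replicate 2 or DMSO replicate 1 or 3 of SCC15, or without ACGs replicate 1 or 3 or any DMSO library of SCC25, with adjusted p from 0.0504 to 0.0928 (limma). CDKN2D did not pass the threshold, with a difference of -0.27 and a 95% interval from -0.68 to 0.13. Without ACGs replicate 3 of SCC15, CDKN2D passed it at -0.45 (adjusted p = 0.00444, limma), and with equal totals at -0.56 (adjusted p = 0.00549, limma).

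Ratios of 2 members within a library do not depend on the scaling, and 4 such ratios, chosen after the values had been seen, set the members against each other. The reads on CDKN2A per read on CDKN2C were 1.84 to 1.91 with DMSO and 9.58 to 9.87 with ACGs in SCC15. In SCC25 the same ratio was 6.66 to 7.29 with DMSO and 9.57 to 11.05 with ACGs. The reads on CDKN1A per read on CDKN1B were 3.78 to 4.07 with DMSO and 7.80 to 8.12 with ACGs in SCC15, and 0.662 to 0.733 with DMSO and 2.57 to 3.14 with ACGs in SCC25. The reads on CDKN1C per read on CDKN1B were 0.105 to 0.159 with DMSO and 1.12 to 1.61 with ACGs in SCC15, and 0.0341 to 0.0383 and 0.108 to 0.117 in SCC25. In these 3 ratios each ACGs library was above each DMSO library of its line. The ratio of CDKN2A to CDKN2B went otherwise, with 7.61 to 8.27 with DMSO and 7.55, 8.61 and 13.4 in replicates 1 to 3 with ACGs in SCC15, where the treatments overlapped and replicate 3 lay far above its partners. In SCC25 it was lower with ACGs, 2.68 to 2.77 against 4.21 to 4.45 with DMSO.

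Per kilobase of the MANE Select transcript, CDKN2A led the group in each of the 4 groups. With DMSO in SCC15 the order by mean normalized count per kb was CDKN2A at 6667, CDKN2C at 3501, CDKN1A at 2312, CDKN1B at 517, CDKN2D at 223, CDKN2B at 210 and CDKN1C at 87.0, with no overlap between neighbours. With ACGs it was CDKN2A at 19604, CDKN1A at 5522, CDKN2C at 1980, CDKN1C at 1108, CDKN2D at 796, CDKN1B at 608 and CDKN2B at 505, where CDKN1C and CDKN2D overlapped. CDKN1A thus stood above CDKN2C with ACGs and below it with DMSO, and CDKN1C left the last place. In SCC25 with DMSO the order was CDKN2A at 2784, CDKN1B at 493, CDKN2C at 395, CDKN1A at 393, CDKN2B at 163, CDKN2D at 136 and CDKN1C at 23.8, with CDKN2C and CDKN1A overlapping. With ACGs it was CDKN2A at 4894, CDKN1A at 2763, CDKN1B at 881, CDKN2D at 583, CDKN2B at 458, CDKN2C at 457 and CDKN1C at 135, with CDKN2B and CDKN2C overlapping. The 7 genes together, per kb, summed to 13248 to 14054 with DMSO and 24486 to 38916 with ACGs in SCC15, and to 4249 to 4573 and 10024 to 10266 in SCC25. CDKN2A took 49.3% ± 0.560 of this sum with DMSO and 64.5% ± 3.41 with ACGs (SD, n = 3) in SCC15, and 63.4% ± 0.797 and 48.1% ± 0.782 in SCC25. The share of CDKN1A went from 8.97% to 27.2% in SCC25 and that of CDKN2C from 25.9% to 6.49% in SCC15. These orders depend on the length used. With all exons of a gene joined, which gives CDKN1B 9255 in place of 2411 bases and CDKN2A 3885 in place of 978, CDKN1A and not CDKN2A came first in SCC25 with ACGs, with 41.9% and 26.5% of the sum. In SCC15, CDKN1A was then above CDKN2C with both treatments.

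The transcripts beside the members did not follow them as a group. CDKN2B-AS1, an antisense long noncoding RNA known for its link to Polycomb silencing of this locus, spans CDKN2B and overlaps CDKN2A by 524 bases on the other strand. Its normalized counts were 12.8, 7.98 and 13.7 with ACGs and 40.1, 45.9 and 52.4 with DMSO in SCC15, and 39.4, 44.7 and 22.2 with ACGs and 108, 103 and 110 with DMSO in SCC25. It was lower in both lines, with log2 fold changes of -1.94 (adjusted p = 9.20e-04, limma) and -1.63 (adjusted p = 3.82e-05, limma), where CDKN2A and CDKN2B were higher. The counting is not stated to use strand, so reads of these overlapping genes cannot be fully told apart. MTAP, at 30101 bases from CDKN2A, was not called in SCC15 at 0.089 on the log2 scale and rose by 0.30 in SCC25. DMRTA1 rose in both lines, by 0.92 and 0.57. Beside CDKN1B, APOLD1 fell in both lines, with log2 fold changes of -2.00 and -0.97. KCNQ1OT1, an imprinted antisense transcript of the CDKN1C domain, rose by 1.13 and 1.04, and KCNQ1 was under the filter. SRSF3, the neighbour of CDKN1A, fell, with -0.39 and -0.19. FAF1, 481 bases from CDKN2C on the other strand, was 0.61 higher in SCC15 and not called in SCC25 at 0.091. AP1M2, beside CDKN2D, was not called in SCC25 at 0.021, and GPR19, near CDKN1B, was not called there at -0.51. Of the list of 12 neighbours, 7 were tested in SCC15, with 3 higher and 3 lower, and 9 in SCC25, with 3 higher and 3 lower. The even split depends on the scaling, since with equal totals 0 were higher and 4 lower in SCC15, and SCC25 had 1 higher and 5 lower.

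The genes of the CDK and cyclin list moved in both directions. This list also holds CDK7, CCNH and MNAT1 of the CDK-activating kinase, so its counts and medians are not those of the inhibitors' binding partners alone. Of 14 tested in SCC15, 5 were higher and 2 lower, with a median log2 fold change of 0.24, and of 15 in SCC25, 10 were higher and 3 lower, with a median of 0.53. In SCC15 equal totals turned this to 1 higher and 7 lower, with a median of -0.26, and without ACGs replicate 3 it was 7 higher and 4 lower. In SCC15, CDK7 and CCNH, of the CDK-activating kinase, rose by 1.04 and 0.73, and CCNE2, a partner of CDK2, fell by 1.92 on the log2 scale. All were called in the same direction in SCC25, with CDK7 at 0.95, CCNH at 0.80 and CCNE2 at -0.44. In SCC25, CCND2 rose by 1.88, CDK1 by 1.25 and CCNA2 by 1.11. CDK1 and CCNA2 were also called higher in SCC15, at 0.51 and 0.33. The targets of INK4 proteins, named after their values were seen, were split in SCC25: CDK4 had -0.97 (adjusted p = 1.18e-08, limma) and CDK6 0.91 (adjusted p = 1.16e-07, limma). Neither was called in SCC15, at 0.29 and -0.053. Downstream, 9 of 13 genes of the RB and E2F list were lower and 2 higher in SCC15 (median -0.63), and 5 were lower and 4 higher in SCC25 (median 0.051). With equal totals 7 were lower and 1 higher in SCC25 (median -0.16), and without ACGs replicate 3 of SCC25 5 were lower and 7 higher. E2F2, an activator of S phase genes, fell in both lines, with -2.44 and -3.15. TFDP2, a partner of E2F proteins, fell with -1.02 in SCC15 and -1.18 in SCC25. E2F1 had -1.66 in SCC25, whereas in SCC15 it was not called at 0.16 and took the opposite sign, -0.34, with equal totals. E2F5 rose in SCC15 by 1.96 and in SCC25 by 1.12. The repressor E2F6 fell in SCC15, with -1.26, and was not called in SCC25 at -0.13.

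Genes for turnover of the CIP/KIP proteins were also mixed. Of 15 tested in each line, 8 were higher and 4 lower in SCC15 (median 0.26) and 5 higher and 6 lower in SCC25 (median -0.042). With equal totals, 3 were higher and 7 lower in SCC15 (median -0.24), and SCC25 had 4 higher and 10 lower (median -0.25). CKS1B, a cofactor of SKP2 in the degradation of p27, rose by 1.42 and 1.20 in the lines. RBX1, a ubiquitin ligase subunit, rose by 1.09 in SCC15 and 0.90 in SCC25, and SKP1 by 0.66 and 1.37. CCNF fell in SCC15, with -1.02, and RNF123, of a ligase that acts on p27 in the cytoplasm, fell in SCC25, with -1.51. SKP2 itself, named after its values were seen, fell in both, with -0.99 (adjusted p = 1.05e-04, limma) and -0.42 (adjusted p = 3.11e-04, limma).

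Of the genes of growth arrest, DNA damage and apoptosis, 12 of 23 tested were higher and 6 lower in SCC15 (median 0.45), and 18 of 24 higher and 5 lower in SCC25 (median 0.79). With equal totals the SCC15 counts were 9 higher and 9 lower. BBC3, which encodes the proapoptotic PUMA, rose by 3.42 and 2.75. GDF15, a stress cytokine, rose by 4.27 and GADD45A, a growth arrest gene, by 2.50 in SCC15. PLK3 rose by 2.29 in SCC15 and 2.88 in SCC25, and PMAIP1, which encodes NOXA, by 1.67 and 2.39. Transcription factors known to act on the CIP/KIP genes included 11 higher and 2 lower of 17 in SCC15 (median 0.54) and 11 higher and 7 lower of 18 in SCC25 (median 0.65). With equal totals, 5 were higher and 5 lower in SCC15. DDIT3, which encodes CHOP, rose by 4.30 in SCC15 and 2.63 in SCC25, and ATF4 by 2.25 and 0.91. KLF6 rose by 1.37 in SCC15 and 2.02 in SCC25, and KLF4 by 0.73 and 2.24. TP73 fell in SCC25, with -3.28. The RNA of MYC, which encodes a repressor of CDKN1A and CDKN2B, was named after its values were seen. It was higher in SCC15, with 0.75 (adjusted p = 5.18e-04, limma), and lower in SCC25, with -1.87 (adjusted p = 2.65e-12, limma). The paper reports less MYC protein with squamocin in both lines, so these RNA values do not give the level of the repressor.

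The Polycomb list, whose members silence or open the INK4 locus, had 2 higher and 2 lower of 12 in SCC15 (median 0.031) and 8 higher and 3 lower in SCC25 (median 0.71). In SCC15 equal totals gave 1 higher and 7 lower (median -0.47), and leaving out ACGs replicate 3 gave 5 higher and 5 lower. KDM6B, an H3K27 demethylase, rose by 0.86 in SCC15 and 0.76 in SCC25, and RING1 by 0.80 and 0.92. JARID2 fell in both lines, with -0.69 and -0.41. In SCC25, BMI1 rose by 1.08, and CBX2 and CBX7 fell, with -1.87 and -1.09. CBX7 was also called lower in SCC15, at -0.37, where BMI1 and CBX2 were not called. Of 10 proliferation markers, 1 was higher and 2 lower in SCC15 (median -0.069), and 4 were higher and 5 lower in SCC25 (median -0.17). With equal totals, 0 were higher and 9 lower in SCC15 (median -0.57), and 2 higher and 5 lower in SCC25. Without ACGs replicate 3 of SCC15, 2 were higher and 4 lower there. MKI67 and the replication helicase gene MCM2 fell in SCC15, with -1.36 and -0.93, and MCM2 and MCM5 fell in SCC25, with -3.56 and -2.23. MKI67 was also called lower in SCC25, at -0.43, and MCM5 was not called in SCC15 at -0.053. BUB1, a mitotic checkpoint gene, rose in both, by 0.59 and 1.33. Epithelial markers were higher for 3 of 7 tested in SCC15 (KRT14 by 0.89, KRT17 by 1.17 and SFN by 0.82) and for 6 of 8 in SCC25 (KRT14 by 1.06, KRT6A by 1.09, KRT17 by 1.60, TP63 by 0.59, SFN by 1.55 and EPCAM by 1.00). KRT5 and CDH1 were lower in SCC25, with -0.25 and -0.46. In SCC15, KRT6A at -0.21, TP63 at -0.72, CDH1 at -0.10 and EPCAM at -0.47 were not called. With equal totals 2 of the 7 were higher and 3 lower in SCC15. Summed over the list, they reached 208839 to 362930 normalized counts with ACGs and 113057 to 119309 with DMSO in SCC15, and 54489 to 57273 against 29847 to 30081 in SCC25. Of the markers of other cells, 2 of 4 tested in SCC15 were lower, and 1 was higher and 2 lower of 5 in SCC25. Their sum was 473 to 492 with ACGs and 773 to 823 with DMSO in SCC15, and 1084 to 1255 against 848 to 947 in SCC25. The part of both lists in the levels of the members was not tested.

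The protein-coding genes whose log2 profile over the 12 libraries lay nearest to each member, relative to the DMSO mean of each line, were found among 9698 genes by the root mean square of the difference. For CDKN1A these were CORO6 (0.17) and NRG1 (0.19), and for CDKN1B PSMD11 (0.057), PAPOLA (0.062) and OGFRL1 (0.063). CDKN1C lay nearest to BBC3 (0.24), HSPA5 (0.27) and PPP1R15A (0.32). CDKN2A lay nearest to RPL35 (0.041), CIAO2B (0.049) and PDLIM4 (0.066), and CDKN2B to PI4K2A (0.046), TPRA1 (0.058) and UFD1 (0.076). The nearest genes were CXCL1 (0.098), SPPL2A (0.12) and LIN9 (0.12) for CDKN2C, and FTL (0.10), MT2A (0.13) and TNFSF9 (0.14) for CDKN2D. The points share libraries and depth, and the distances are descriptions.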

How the data were processed

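The 12 RNA-seq libraries came from SCC15 and SCC25 cells. The authors aligned reads to GRCh38 with HISAT2 2.0.5 and counted them per gene with featureCounts 1.5.0-p3, as the submitters' processing notes and the paper's methods state. In the deposited tables the signal of a gene is its count of reads over a size factor, which the authors set for each library within a cell line. SCC25 column headers name FPKM, which the values are not. Values divided by the step of 1 read came out whole (within 0.02 reads) for 100% of values in each library. The tables also hold the authors' own fold changes and p-values, which were not used. The intervals and p-values come from the spread between libraries.

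Genes with a mean of at least 10 normalized counts over 6 libraries were tested with limma 3.58.1 (R 4.3.3, eBayes with a trend) on log2(value + 1), which understates changes of low genes. Benjamini-Hochberg adjustment covered all tested genes. Alternatives used pseudocounts of 0.1 and 10, other filters, TMM and equal totals, count tests on the recovered reads (edgeR 4.0.16, DESeq2 1.42.0), a replicate block, and each library left out. On these reads edgeR called 4712 genes higher and 5168 lower for SCC15 (6298 and 6506 for SCC25), and DESeq2 5067 and 4897 (6093 and 6103). The members, the 10 lists and the tests were chosen with earlier results of these data known. Named genes were the 7 members, the 3 largest called changes per list and line, each epithelial marker and neighbour gene, and the 3 nearest profiles. CDK4, CDK6, SKP2 and MYC were named after their values were seen. Lengths came from GENCODE release 44, and joined exons were added as a length after the data were seen. For 24 and 21 rows of the tables the gene name had become a date, and these were kept by identifier. Results for some single genes that this rule would name are not given.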

Additional observations from a re-analysis of the deposited data

Results flagged for a closer look

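The response to ACGs differed between the cell lines for 6 of the 7 CDK inhibitor genes by the limma contrast, as log2 fold change in SCC15 minus that in SCC25. The difference was -1.56 for CDKN1A, -0.60 for CDKN1B, 1.19 for CDKN1C, 0.70 for CDKN2A, -0.23 for CDKN2B and -1.08 for CDKN2C. Such a difference was called for 52.2% of all genes tested in both lines. CDKN2C was the member with opposite calls in the lines, and CDKN2B had the smallest of the 6 differences.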

How the results depend on the processing

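The replicate numbers did not pair the libraries, with same-number correlations across genes of -0.026, 0.0032 and -0.051 in SCC15 and 0.0078, -0.015 and -0.010 in SCC25. A replicate block left CDKN1B in SCC15 at 0.23 (adjusted p = 0.114, limma) and the CDKN2B difference between lines at -0.23 (adjusted p = 0.117), both no longer called, and changed no other call of a member. For CDKN1B in SCC15 the call was also lost with all genes above 0 (0.23, adjusted p = 0.0669, limma), TMM scaling (0.19, adjusted p = 0.0816) and edgeR (0.16, adjusted p = 0.0935), and equal totals reversed it to -0.27 (adjusted p = 0.0176). With 1 library left out it ranged from 0.18 to 0.26. CDKN2C in SCC25 was not called with equal totals (0.0035) or DESeq2 (0.21, adjusted p = 0.0533), and ranged from 0.17 to 0.23 with 1 library left out. The CDKN2B difference was not called with all genes above 0 (-0.23, adjusted p = 0.0919) and ranged from -0.25 to -0.21 with 1 library left out. The CDKN2D difference was called with equal totals (-0.56), and ranged from -0.45 to -0.16 with 1 library left out. Equal totals gave 2336 genes higher and 8179 lower in SCC15 (4921 and 4773 with the deposited scaling), 2 members lower there in place of 1, and 2399 genes in place of 3779 with the higher response in SCC15. They also turned the sign of CCNA2 (-0.17), E2F1 (-0.34) and MTAP (-0.41) in SCC15 and AP1M2 (-0.19) in SCC25.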
